A study of Mus musculus with 56 samples.

Results

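Hearts of night-fed mice were compared between the end and the beginning of the light phase: 4 libraries taken at zeitgeber time (ZT) 12, when the lights went off after the daytime fast, against 4 libraries taken at ZT0, when the lights came on after the night's meal. These 8 libraries are all those labelled night-restricted feeding (NRF) heart at ZT12 and at ZT0, out of 56 heart libraries in the series, and 13869 genes were tested in them. The donors were female C57BL/6J mice, 9 weeks old at collection, with no engineered allele or drug named, kept on 12 h of light and 12 h of darkness. They ate freely for 7 days and then had food only at night (NRF) or only by day (day-restricted feeding, DRF) for 7 days. Hearts of both regimens were collected every 4 h from ZT0 to ZT24, with 4 libraries for each of 14 groups. The hours at which food was given are not stated in the sources used here, and because light and food were scheduled together in NRF mice, time of day, light and hours since the last meal cannot be told apart at ZT12 and ZT0. The labels do not say whether each library came from a single heart, so p-values measure the spread between these libraries.

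The mammalian circadian clock is a transcriptional feedback loop that runs in nearly every cell, the cardiomyocyte included. ARNTL (BMAL1) pairs with CLOCK or NPAS2, binds E-boxes and switches on the PER, CRY and REV-ERB repressors, which in turn silence the pair or the Arntl gene itself, and output factors such as DBP carry the rhythm to other genes. In the heart the clock is known to time metabolism, electrical properties and growth, while feeding sends its own signals through insulin, nutrients, body temperature and adrenal hormones.

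The 8 libraries held 34460043 to 47834435 recovered reads each. Across all genes, libraries of the same group correlated at 0.986 to 0.99 and libraries of different groups at 0.976 to 0.981, given as a description. The 6 cardiomyocyte markers were abundant throughout, with a summed level of 27862 to 36494 TPM, a level scaled for transcript length and library size, at ZT0 and 27399 to 29859.9 TPM at ZT12. Mitochondrially encoded genes took 16.5 to 21.9% of reads at ZT0 and 19.7 to 20.7% at ZT12. The amount of atrium and of blood varied from library to library. Summed over the atrial markers Nppa, Myl7, Myl4, Sln and Bmp10, the level was 2601, 4032, 338 and 3219.8 TPM in NRF ZT0 replicates 1 to 4 and 553, 1630.1, 258 and 189 TPM in NRF ZT12 replicates 1 to 4 (exact permutation test, two-sided, p = 0.086, the smallest possible being 0.0286, and 0.94 after Benjamini-Hochberg adjustment over 13 composition measures). The haemoglobin and other blood markers summed to 2585 to 26592 TPM at ZT0 and 2182 to 42595 TPM at ZT12, the highest library being NRF ZT12 replicate 4. None of the 13 composition measures separated the groups. Distances in the 23 clock genes tested were root mean square distances in log2(TPM + 1) from the mean of a group. By these, NRF ZT8 replicate 1 and 4 DRF libraries stood nearer to another time of their regimen than to their own. ZT0 and ZT24 were counted as the same time. The DRF libraries were ZT4 replicates 1 and 4, ZT12 replicate 3 and ZT16 replicate 1. NRF ZT8 replicate 1 lay 0.39 from the DRF ZT4 mean and 1.22 from the rest of NRF ZT8, and DRF ZT4 replicate 1 lay 0.26 from the NRF ZT8 mean and 0.99 from the rest of DRF ZT4. These 2 enter the comparisons of ZT12 with ZT0 only through the shared spread. Without both of them 2570 genes were called in NRF and 1405 in DRF. DRF ZT12 replicate 3, nearest DRF ZT8, enters the DRF comparison directly. Without it 950 genes were called in DRF and 1822 for the difference between the regimens.

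Between ZT0 and ZT12 the NRF heart changed on a broad front: at a limma adjusted p under 0.05, 2353 genes were called, 17.0% of those tested. Of these, 1007 (7.26%) were higher and 1346 (9.71%) lower at ZT12. The changes were mostly modest, with a median absolute difference of 0.39 among called genes. By at least 1 in log2(TPM + 1), 88 genes rose and 60 fell, which asks for more than 2-fold in TPM. With a pseudocount of 0.1 in place of 1 these counts were 140 and 110. Differences here and throughout are ZT12 minus ZT0 in log2(TPM + 1), followed by the standard error and, for single genes, by limma's Benjamini-Hochberg adjusted p, with n = 4 libraries in each group. The median over all genes tested was -0.004. For 2859 genes, 20.6% of those tested, all 4 libraries of either group lay above all 4 of the other, and 1934 of the 2353 called genes were among them. Falls outnumbered rises more among short transcripts, with 64 genes higher and 132 lower of 1444 under 1000 bases of exon (median difference -0.06), against 710 higher and 870 lower of 8669 of 3000 bases or more (median 0.005). The split between rises and falls depended on the choice of reference, and against the NRF ZT24 libraries, 24 h after ZT0, 2107 genes were higher and 954 lower at ZT12, with a median over all genes of 0.06.

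**Figure D1:**
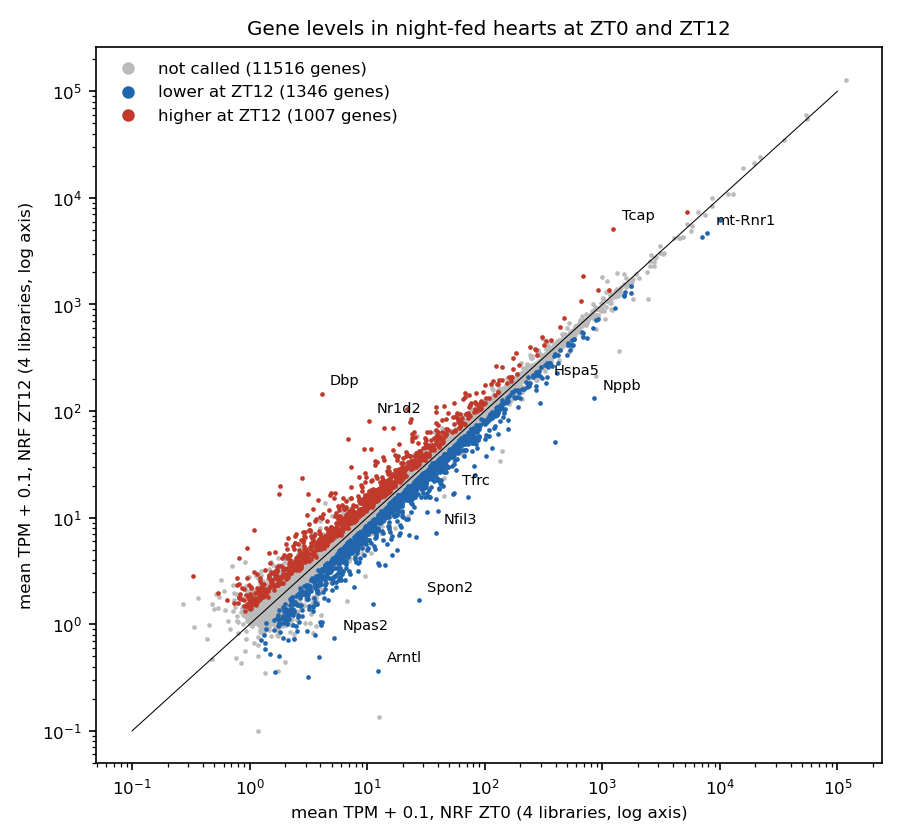
Mean level of each of the 13869 genes tested (TPM + 0.1, log axes) in the 4 NRF ZT0 libraries (horizontal) and the 4 NRF ZT12 libraries (vertical), with 1007 genes called higher at ZT12 in red, 1346 called lower in blue and 11516 not called in grey. Dbp lies farthest above the diagonal of the labelled genes, at 146 TPM against 4.003 TPM, while Arntl, Spon2 and Nppb lie far below it.

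The circadian clock genes were almost all called. Of the 5 activators and their partners, 4 fell and Rora rose. Arntl (chr7:113207465-113314126 on GRCm38), the core activator, stood at 14.6, 11.8, 11.5 and 11.3 TPM at ZT0 and 0.477, 0.201, 0.139 and 0.253 TPM at ZT12. Every ZT0 library was far above every ZT12 library, and Arntl fell by 3.39 ± 0.23, adjusted p = 2.0e-15. Its partner Clock stood at 12.9, 11.4, 10.4 and 12.0 TPM at ZT0 and 5.35, 4.87, 4.82 and 5.00 TPM at ZT12, a clear gap at a smaller fold, and fell by 1.07 ± 0.09, adjusted p = 3.0e-12. Npas2, which can take the place of Clock, fell by 1.89 ± 0.18, adjusted p = 2.6e-11. Rora, which encodes a nuclear receptor that activates Arntl, rose by 0.53 ± 0.10, adjusted p = 1.4e-04.

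The repressors moved the other way, with 9 of 10 higher and none lower at ZT12, and a median difference of 2.15. Nr1d2, which encodes REV-ERB beta, a repressor of Arntl, was at 8.50, 9.35, 7.55 and 15.3 TPM at ZT0 and 84.6, 79.4, 83.3 and 76.0 TPM at ZT12 and rose by 2.92 ± 0.19, adjusted p = 5.1e-16. Per1 was at 8.396, 4.93, 6.30 and 17.3 TPM at ZT0 and 43.0, 41.9, 49.8 and 42.6 TPM at ZT12, and Per2 at 4.24, 2.25, 3.08 and 1.22 TPM at ZT0 and 25.0, 19.998, 25.7 and 22.4 TPM at ZT12. For all 3 genes the groups lay far apart, although Per1 and Nr1d2 were both highest at ZT0 in replicate 4, where Per2 was lowest. Per1 rose by 2.28 ± 0.36, adjusted p = 8.3e-06, Per2 by 2.78 ± 0.24, adjusted p = 3.0e-12 and Per3 by 2.73 ± 0.18, adjusted p = 1.0e-15. Ciart, a repressor of the CLOCK and ARNTL pair, was at 2.01, 1.32, 2.37 and 1.13 TPM at ZT0 and 24.7, 17.5, 21.1 and 15.97 TPM at ZT12 and rose by 2.95 ± 0.36, adjusted p = 2.8e-08. Nr1d1 (REV-ERB alpha) rose by 2.02 (adjusted p = 3.9e-07), Bhlhe41 by 1.21 (adjusted p = 1.6e-08) and Cry2 by 1.04 (adjusted p = 4.6e-10). Bhlhe40 differed by 0.71 ± 0.22, adjusted p = 0.021, a call lost without NRF ZT0 replicate 1 (0.57, adjusted p = 0.10), NRF ZT0 replicate 2 (0.65, adjusted p = 0.057) or NRF ZT12 replicate 1 (0.65). Cry1 was the exception, at 24.1, 17.0, 21.1 and 13.97 TPM at ZT0 and 14.9, 14.8, 15.8 and 13.8 TPM at ZT12, with overlapping groups and a difference of -0.32 ± 0.16, adjusted p = 0.17.

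Among the 8 output factors 5 rose and 1 fell. Dbp (chr7:45705088-45710203), a transcription factor that binds D-boxes, was at 3.71, 3.13, 4.88 and 4.29 TPM at ZT0 and 160.4, 162, 145 and 115 TPM at ZT12. Of the called genes of at least 5 TPM in the higher group without overlap it rose the most, its mean being 36.4-fold higher at ZT12 (4.87 ± 0.42, adjusted p = 4.0e-12). Its relatives Tef and Hlf rose by 2.21 ± 0.16, adjusted p = 1.3e-14, and by 1.93 ± 0.15, adjusted p = 6.9e-14. Nfil3, which encodes a repressor that competes for the same D-boxes, was at 42.8, 33.4, 38.3 and 38.2 TPM at ZT0 and 6.41, 6.64, 8.38 and 7.13 TPM at ZT12, lower in every ZT12 library, and fell by 2.27 ± 0.25, adjusted p = 2.4e-09. The Krüppel-like factors divided: Klf9 rose by 0.97 ± 0.14, adjusted p = 2.4e-06, and Klf15, a regulator of cardiac metabolism that also responds to glucocorticoids, by 1.16 ± 0.22, adjusted p = 1.7e-04. Klf10 (0.04, adjusted p = 0.94) and Klf11 (0.17, adjusted p = 0.59) were not called.

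The promoter sequences of 4 of these clock genes are shown because they carry the elements through which the loop is known to run. They are windows of the RefSeq promoters of GRCm38.p6, 5′ to 3′ on the gene's strand, with the motif matches in capitals. Ciart (chr3:95882264-95882348, minus strand) has 3 E-boxes (CACGTG) that begin 116, 58 and 44 bases before the start site. Per1 (chr11:69098779-69098938, plus strand) has an E-box 166 bases and a D-box (TTATGCAA) 24 bases before it. Per3 (chr4:151044811-151044875, minus strand) has 2 D-boxes (TTATGTAA). Nfil3 (chr13:52981040-52981099, minus strand) has the reverse complement, TGACCTA, of the element TAGGTCA that ROR and REV-ERB receptors bind.
Ciart: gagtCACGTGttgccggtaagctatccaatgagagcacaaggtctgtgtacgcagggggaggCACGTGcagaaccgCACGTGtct
Per1: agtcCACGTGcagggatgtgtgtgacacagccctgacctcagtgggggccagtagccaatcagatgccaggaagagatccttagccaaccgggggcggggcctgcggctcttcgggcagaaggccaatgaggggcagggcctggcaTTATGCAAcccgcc
Per3: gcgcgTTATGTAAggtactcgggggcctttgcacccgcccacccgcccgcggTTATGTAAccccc
Nfil3: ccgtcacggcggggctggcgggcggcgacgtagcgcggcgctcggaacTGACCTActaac

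RefSeq promoters from 250 bases before to 50 after a start were matched to 9907 of the genes tested and searched on both strands. An E-box was found in 11.6% (1147 of 9907) of them, in 15.2% (113 of 746) of the genes called higher and in 12.0% (114 of 952) of those called lower. A D-box (TTATGTAA or TTATGCAA) was found in 1.42% (141 of 9907) of all, 2.95% (22 of 746) of the higher and 1.37% (13 of 952) of the lower genes. The ROR element TAGGTCA was held by 2.31% (229 of 9907), 2.15% (16 of 746) and 2.94% (28 of 952) of the same 3 sets. Clock repressors had an E-box in 4 of 8 matched genes and a D-box in 2 of 8. The forkhead motif GTAAACA, the kind that FOXO factors bind, was found in 3.22% (319 of 9907) of all, 4.96% (37 of 746) of the higher and 2.63% (25 of 952) of the lower genes. The higher genes had slightly more promoters each (1.36, against 1.28 over all), and so more sequence searched for each. A match describes the letters in the window and does not show binding.

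**Figure D2:**
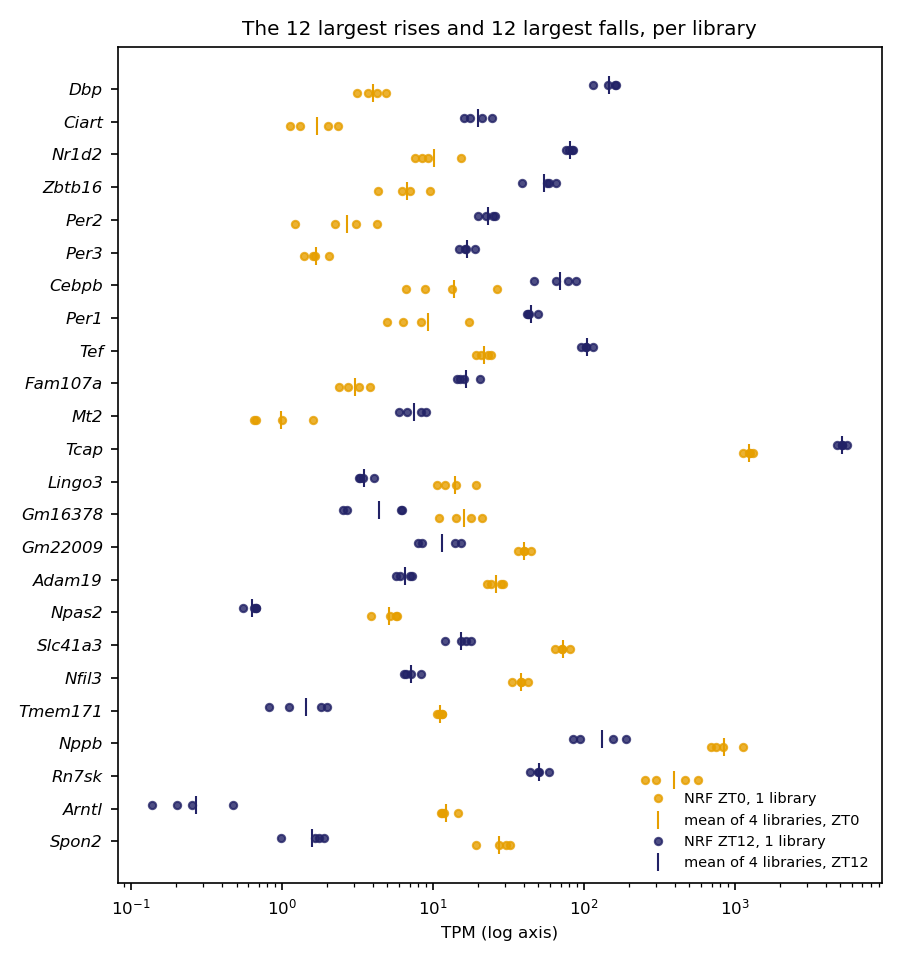
Level in TPM (log axis) of the 24 genes with the largest rises and falls among called genes whose groups did not overlap. All had a mean of at least 5 TPM in the higher group. Each point is 1 library (orange NRF ZT0, navy NRF ZT12), with a tick at each group mean. The points of the 2 groups are apart in every row, as for Dbp (3.13 to 4.88 TPM against 115 to 162 TPM) and Arntl (11.3 to 14.6 TPM against 0.14 to 0.48 TPM).

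Outside the clock, Tcap (chr11:98383811-98384953), which encodes telethonin, the cap of titin at the Z-disc, was at 1268, 1136, 1309 and 1232 TPM at ZT0 and 5549.5, 5132, 5089 and 4742 TPM at ZT12. It was among the abundant transcripts of the heart already at ZT0, was higher in each ZT12 library and rose 4.15-fold (2.05 ± 0.23, adjusted p = 5.5e-09). Cebpb, a transcription factor of metabolic and inflammatory genes, was at 8.82, 13.4, 6.67 and 26.5 TPM at ZT0 and 78.5, 88.6, 65.1 and 46.5 TPM at ZT12 and rose by 2.39 ± 0.33, adjusted p = 4.6e-07. Zbtb16, a zinc finger repressor known to respond to glucocorticoids, rose by 2.86 ± 0.38, adjusted p = 2.0e-07. Fam107a, which encodes an actin-binding stress protein, rose by 2.11 ± 0.22, adjusted p = 1.2e-09.

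The deepest fall apart from the clock was in Spon2, which encodes a secreted matrix protein, at 27.6, 19.2, 32.3 and 30.4 TPM at ZT0 and 0.987, 1.77, 1.90 and 1.65 TPM at ZT12. Every ZT12 library was far below every ZT0 library, and Spon2 fell by 3.45 ± 0.37, adjusted p = 2.4e-09. Nppb (chr4:147985788-147987205), the gene of B-type natriuretic peptide and a marker of wall stress, was at 1126, 697, 745 and 828 TPM at ZT0 and 191, 155, 94.4 and 84.2 TPM at ZT12. All 4 ZT0 libraries were above all 4 ZT12 libraries, and Nppb fell 6.47-fold (-2.74 ± 0.34, adjusted p = 4.4e-08). Since Nppb is also made in the atria, the atrial marker Myl7 is given beside it, at 916, 1441, 75.8 and 1096 TPM at ZT0 and 207, 563, 67.9 and 23.4 TPM at ZT12. With the summed atrial and blood markers as covariates Nppb differed by -2.62 (adjusted p = 4.3e-07). Nppa, the atrial peptide, was not called (-1.90, adjusted p = 0.13), nor was Myl7 (-2.28, adjusted p = 0.24). In bulk tissue fewer cells of a type and less RNA per cell cannot be told apart.

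Slc41a3, of a family of magnesium transporters, was at 72.0, 64.0, 71.6 and 81.2 TPM at ZT0 and 16.5, 17.8, 15.3 and 12.1 TPM at ZT12. The spread inside each group was small against the gap, and it fell by 2.16 ± 0.16, adjusted p = 1.6e-14. The metalloprotease gene Adam19 fell by 1.85 ± 0.16, adjusted p = 3.1e-12, the membrane protein gene Lingo3 by 1.71 ± 0.14, adjusted p = 1.0e-12, and Tmem171 by 2.34 ± 0.20, adjusted p = 3.8e-12. The noncoding Rn7sk, the 7SK RNA that holds back transcription elongation, was at 256, 299.9, 568 and 468 TPM at ZT0 and 49.9, 58.9, 43.7 and 50.1 TPM at ZT12 and differed by -2.88 ± 0.94, adjusted p = 0.027. It carries no poly(A) tail, and whether its reads in a library selected for poly(A) follow its amount in the cell was not tested. Against ZT24 its difference was 1.01 (adjusted p = 0.48), and with the atrial and blood marker covariates -2.19 (adjusted p = 0.10). The call was also lost without NRF ZT0 replicate 3 (-2.69) or 4 (-2.78) or NRF ZT12 replicates 1 (-2.88), 3 (-2.82) or 4 (-2.88). The small Cajal body RNA gene Gm22009 (-1.77 against ZT0) likewise went to 0.43 (adjusted p = 0.52) against ZT24. The processed pseudogene Gm16378 (-1.71) may share reads with its parent gene and is uncertain, and against ZT24 it differed by -0.54 (adjusted p = 0.073).

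Glucocorticoids are adrenal hormones that in nocturnal animals peak near lights off. Over all genes 7.26% were higher at ZT12 and 9.71% lower. Of 19 genes tested that respond to glucocorticoids 10 were higher and 1 lower, with a median of 0.87. Per1 and Zbtb16 belong to this list too. The metallothionein gene Mt2 was at 0.675, 1.61, 0.994 and 0.652 TPM at ZT0 and 8.31, 5.94, 9.06 and 6.76 TPM at ZT12, low in all ZT0 libraries, and rose by 2.11 ± 0.31, adjusted p = 1.4e-06. Arrdc2, an arrestin-domain gene, rose by 1.67 ± 0.22, adjusted p = 2.5e-07. The count of rises was between 9 and 11 in every alternative run. The sequence ACANNNTGT, a loose form of the receptor's site, was found in the promoters of 4 of 16 matched genes of this list, and in 5.05% (500 of 9907) of all and 4.96% (37 of 746) of the genes called higher. The genes of the list had more promoters each (1.62, against 1.28 over all), and so more sequence searched.

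Protein chaperones were prominent among the falls. Of 26 heat shock chaperones and their partners 14 were lower at ZT12 and none higher by limma (1 at an unadjusted p under 0.05), with a median of -0.26. Over all genes 9.71% were lower and 7.26% higher. Hsph1, a large cytosolic chaperone that releases nucleotide from HSP70, was at 26.0, 20.98, 27.5 and 19.0 TPM at ZT0 and 11.9, 10.1, 11.3 and 11.6 TPM at ZT12. It fell by 0.98 ± 0.19, adjusted p = 1.4e-04. Serpinh1, the collagen chaperone HSP47, fell by 0.82 ± 0.18, adjusted p = 6.4e-04, and Stip1, which bridges HSP70 and HSP90, by 0.56 ± 0.11, adjusted p = 2.0e-04. Hsp90aa1, the inducible HSP90, differed by -0.64 ± 0.21, adjusted p = 0.029. The call was lost without NRF ZT0 replicate 1 (-0.51, adjusted p = 0.13), where Hsp90aa1 stood at 114 TPM. It was also lost without NRF ZT12 replicate 2 (-0.61) or 3 (-0.60), and with the atrial and blood marker covariates (-0.61, adjusted p = 0.051). Without NRF ZT0 replicate 1 there were 8 falls. The heat shock element GAANNTTC lay in the promoters of 11 of 22 matched genes of the list and in 5 of the 11 matched that fell, against 6.92% (686 of 9907) of all.

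In the endoplasmic reticulum 16 of 28 chaperones and unfolded protein response genes fell and 1 rose (median -0.32), beside 9.71% and 7.26% of all genes. Hspa5, the HSP70 of this compartment (BiP), was at 434, 253, 329 and 301 TPM at ZT0 and 229.8, 166, 178 and 161 TPM at ZT12, with the ZT0 libraries all higher, and fell by 0.83 ± 0.15, adjusted p = 9.6e-05. Its co-factors Sdf2l1, Manf and Hyou1 fell by 1.39 (adjusted p = 7.7e-05), 1.05 (adjusted p = 3.7e-04) and 0.91 (adjusted p = 4.3e-05). Herpud1, which serves the degradation of proteins from this compartment, went the other way and rose by 1.10 ± 0.13, adjusted p = 2.3e-08. Without NRF ZT0 replicate 1, whose Hspa5 was the highest, there were 9 falls. Of 5 genes listed for the response to mild cold 2 rose, both RNA-binding proteins, and the 1 that fell was Hspa5 itself. Cirbp was at 25.1, 36.7, 29.2 and 35.0 TPM at ZT0 and 53.8, 55.7, 63.7 and 42.7 TPM at ZT12 and rose by 0.76 ± 0.18, adjusted p = 0.0023. Every ZT12 library was above every ZT0 library, and Rbm3 rose as well (0.81 ± 0.17, adjusted p = 3.3e-04).

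Cholesterol synthesis and uptake, which SREBP2 switches on, had 9 of 19 genes lower and 1 higher at ZT12 (median -0.24). The shares of all genes were 9.71% and 7.26%. Srebf2, the gene of SREBP2 itself, was at 20.8, 19.0, 20.1 and 18.6 TPM at ZT0 and 13.0, 12.8, 14.3 and 12.2 TPM at ZT12. It fell by 0.55 ± 0.09, adjusted p = 1.6e-05, and Sqle, squalene epoxidase of the synthesis pathway, by 0.55 ± 0.11, adjusted p = 2.6e-04. With only genes of at least 5 TPM tested, 4 falls were counted. Of 18 genes of lipid droplets, lipolysis and triglyceride synthesis 4 rose and 3 fell, beside 7.26% and 9.71% of all genes. Dgat2, which makes triglyceride, rose by 0.72 ± 0.11, adjusted p = 9.0e-06, and Lpin3, a phosphatidate phosphatase, by 0.70 ± 0.15, adjusted p = 4.9e-04. The rises numbered 2 without NRF ZT0 replicate 2 or NRF ZT12 replicate 3 and the falls 1 without ZT0 replicate 1 or 3 or ZT12 replicate 2 or 4.

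Fatty acid oxidation, the heart's main source of energy, had 1 of 26 genes called higher, Acox3 of the peroxisome (0.32 ± 0.08, adjusted p = 0.0055), and none lower by limma (0 at an unadjusted p under 0.05, 0 by voom). The background of rises was 7.26%, and the count was 4 with voom, with median-of-ratios scaling or against ZT24, 3 without ZT0 replicate 3 or ZT12 replicate 4 and 2 without ZT12 replicate 2. Among 19 PPAR targets and fasting genes the droplet coat gene Plin4 was higher (0.50 ± 0.15, adjusted p = 0.014) and Tfrc, described further on, lower, the Plin4 call being lost without ZT0 replicate 2 (0.39) or ZT12 replicate 1 (0.43). Against ZT24, 5 genes of this list were higher. Cpt1a, named after its values were seen, missed the threshold narrowly (0.48 ± 0.17, adjusted p = 0.051). Pdk4, the gene of a pyruvate dehydrogenase kinase, was likewise chosen after its values were seen. It ranged over 124 to 270.2 TPM at ZT0 and 67.9 to 158 TPM at ZT12 (-0.70 ± 0.46, adjusted p = 0.31). None of 6 ketone genes was called by limma (2 at an unadjusted p under 0.05, and 1 called by voom), and none of 18 fatty acid synthesis genes (3 at an unadjusted p under 0.05, 0 by voom).

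In glucose metabolism 4 of 30 genes rose and 4 fell, near the 7.26% and 9.71% of all genes. Pfkfb3, which makes the activator of phosphofructokinase, was at 3.996, 3.52, 4.89 and 3.73 TPM at ZT0 and 11.5, 9.43, 10.9 and 7.26 TPM at ZT12, with ZT12 higher throughout, and rose by 1.09 ± 0.17, adjusted p = 4.4e-06. The related Pfkfb1 rose by 0.98 ± 0.17, adjusted p = 3.7e-05, whereas Ppp1r3c, which targets protein phosphatase 1 to glycogen, fell by 1.07 ± 0.17, adjusted p = 6.6e-06. The 4 falls were 2 without NRF ZT0 replicate 1, NRF ZT0 replicate 3 or NRF ZT12 replicate 2. Along the insulin pathway 3 of 25 genes rose and 3 fell, again near the background. Pik3r1, the regulatory subunit of PI3-kinase, rose by 0.91 ± 0.13, adjusted p = 9.6e-07, and Deptor, an inhibitor of mTOR, by 0.50 ± 0.11, adjusted p = 6.5e-04. The receptor substrate Irs1 fell by 0.53 ± 0.12, adjusted p = 0.0017, and the list's falls were 1 without NRF ZT12 replicate 4.

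FOXO targets and atrophy genes, which are held down by insulin signalling, had 7 of 22 higher and 1 lower (median 0.13). The shares of all genes were 7.26% and 9.71%. Pik3ip1, an inhibitor of PI3-kinase, was at 17.6, 16.9, 14.7 and 16.4 TPM at ZT0 and 35.2, 49.1, 45.8 and 40.2 TPM at ZT12. Its groups did not overlap, and it rose by 1.32 ± 0.17, adjusted p = 1.0e-07. Foxo3 itself rose by 0.83 ± 0.13, adjusted p = 7.0e-06, while Cdkn1a, the cell cycle inhibitor p21, fell by 1.06 ± 0.20, adjusted p = 1.1e-04. Against ZT24 the rises numbered 12. Of 30 autophagy genes 2 rose and 3 fell, near the 7.26% and 9.71% of all genes, the adaptor Sqstm1 (p62) rising by 0.48 ± 0.08, adjusted p = 1.6e-05, with 1 fall without ZT0 replicate 1 or 3 and 1 rise without ZT0 replicate 1 or 2 or ZT12 replicate 3 or 4. The autophagy rises numbered 4 with voom or median-of-ratios scaling and 9 against ZT24. Among 17 genes of NAD synthesis and the sirtuins 3 were called, near the 17.0% of all genes. Nampt (0.55 ± 0.10, adjusted p = 8.3e-05) and Sirt1 (0.40 ± 0.08, adjusted p = 2.0e-04) rose and Nmnat1 fell (-0.28, adjusted p = 0.0024), and the rises were 4 with voom. Of 23 antioxidant NRF2 targets 5 rose, with Gsta3 (0.72 ± 0.15, adjusted p = 4.2e-04) and the glutathione synthesis subunit Gclm (0.61 ± 0.09, adjusted p = 3.4e-06) leading, and 2 fell. These rises were 3 without ZT0 replicate 2, and the falls 0 without ZT0 replicate 1 or 3 or ZT12 replicate 4 and 1 without ZT12 replicate 2.

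Of 44 ribosome biogenesis genes, which build the machinery for making proteins, 12 fell and 2 rose (median -0.13), beside 9.71% and 7.26% of all genes. The falls were small, among them Bysl (-0.45, adjusted p = 6.8e-04) and Nob1 (-0.37, adjusted p = 9.6e-05), which mature the small subunit. The falls were 6 without NRF ZT12 replicate 4, near the background, and 7 without NRF ZT0 replicate 3 or NRF ZT12 replicate 2. Translation factors had 5 of 34 higher and 1 lower, in all near the 17.0% background. Eef2k, the kinase that stops elongation, rose by 0.59 ± 0.10, adjusted p = 2.4e-05, Eif4ebp1, the brake on initiation that mTOR releases, by 0.43 ± 0.08, adjusted p = 7.0e-05, and Eif4b by 0.37 ± 0.08, adjusted p = 0.0011. These rises were 3 without ZT0 replicate 3 or 4 or ZT12 replicate 2. Of 20 aminoacyl-tRNA synthetases 3 fell and 1 rose, and the falls were 0 without ZT0 replicate 1 or 3 or ZT12 replicate 4, 1 without ZT12 replicate 1 and 5 without ZT0 replicate 2 or 4. The rise was lost without ZT0 replicate 2 or 4 or ZT12 replicate 1 or 2. Among 19 amino acid response genes Chac1, which degrades glutathione, rose by 1.56 ± 0.31, adjusted p = 2.2e-04 and Cth by 0.78 ± 0.17, adjusted p = 7.1e-04, while the amino acid transporter Slc38a2 fell by 0.69 ± 0.12, adjusted p = 7.0e-05. The list had 4 falls, and 2 without ZT0 replicate 1 or ZT12 replicate 1 or 3. Of 31 proteasome subunits 1 was called, and none without ZT0 replicate 2 or 4 or any of ZT12 replicates 1 to 3. With voom 4 subunits were called higher, and with median-of-ratios scaling 3. Of 32 splicing factors 2 were higher and 6 lower, Hnrnpc leading the falls (-0.39, adjusted p = 6.2e-06). The 2 rises, the splicing kinases Clk1 and Clk4, were not called without ZT0 replicate 3 (adjusted p = 0.060 and 0.14) or against ZT24 (adjusted p = 0.063 and 0.17), and Clk4 was also lost without ZT12 replicate 1, 3 or 4 and with the marker covariates.

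Nuclear genes of the respiratory chain were called lower in 8 of 70 and higher in none (median -0.14), a share close to the 9.71% background. At an unadjusted p under 0.05, 25 were lower and 0 higher, beside 4129 of all 13869 genes in either direction. The groups did not overlap for 26 of the 70, beside 20.6% of all genes. Atp5k (-0.47, adjusted p = 0.0048) and Cox7c (-0.44, adjusted p = 9.3e-04) had the largest falls, and against ZT24 Cox7c differed by -0.24 (adjusted p = 0.075). The count of called falls was sensitive to single libraries. It was 3 without NRF ZT0 replicate 1 and 4 without NRF ZT0 replicate 4 or NRF ZT12 replicate 4. Without NRF ZT12 replicate 1 or 2 it was 5. It was 22 with atrial and blood markers as covariates and 2 against ZT24. Of the 15 mitochondrially encoded genes both ribosomal RNAs fell. The small one, mt-Rnr1, was at 7408, 8122, 6983 and 8582 TPM at ZT0 and 4060.1, 4657, 4804 and 5108 TPM at ZT12, without overlap, and fell by 0.74 ± 0.18, adjusted p = 0.0028. The large one, mt-Rnr2, fell by 0.69 ± 0.18, adjusted p = 0.0045, and no mitochondrial messenger was called. Among 25 regulators of mitochondrial biogenesis 4 fell and 1 was called higher, and none was higher without ZT0 replicate 1, 2 or 3 or ZT12 replicate 2 or 3 or with the marker covariates. With these covariates 7 fell. Rxrg, a partner of PPAR and other nuclear receptors, fell by 0.63 ± 0.09, adjusted p = 9.6e-07, and Perm1, a muscle regulator of mitochondrial genes, by 0.40 ± 0.09, adjusted p = 0.0011.

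Structural and electrical genes of the cardiomyocyte were called at shares near the 17.0% of all genes, 5 of 27 in the sarcomere, 6 of 26 among ion channels and 4 of 21 in calcium handling. In the sarcomere list 1 of 27 rose, Tcap, and 4 fell, led by Cavin4, a caveolar protein of the T-tubule (-0.73, adjusted p = 7.0e-07). The falls were 2 without NRF ZT0 replicate 3 and 9 with the marker covariates. Of 26 ion channel genes 5 fell and 1 rose. Gja1, the ventricular gap junction protein connexin 43, was at 97.9, 104, 114 and 119 TPM at ZT0 and 59.0, 64.9, 74.6 and 64.2 TPM at ZT12, lower at ZT12, and fell by 0.72 ± 0.13, adjusted p = 6.9e-05. The background potassium channel Kcnk3 fell by 0.50 ± 0.07, adjusted p = 9.2e-07. The channel falls were 2 without ZT0 replicate 1 and 3 without ZT0 replicate 3 or 4 or ZT12 replicate 1 or 2, and the rise was lost without ZT0 replicate 1 or ZT12 replicate 1 or 3. Of 21 calcium handling genes 4 fell, among them Jph2, which ties the T-tubule to the calcium store (-0.40, adjusted p = 4.5e-04), and the falls were 1 without ZT0 replicate 3 and 2 without ZT0 replicate 1 or ZT12 replicate 2 or 4.

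Adrenergic signalling had 2 of 23 genes higher and 5 lower, beside 7.26% and 9.71% of all genes. The alpha-1 receptors split, Adra1b falling by 0.71 (adjusted p = 5.1e-05) and Adra1a rising by 0.59 (adjusted p = 0.0077), and the receptor kinase Grk5 fell by 0.66 ± 0.11, adjusted p = 2.2e-05. The overlapping Gnas locus was called higher (1.19, adjusted p = 0.0012) and is uncertain, since its reads can come from several transcripts. Against ZT24 it differed by 0.43 (adjusted p = 0.27), and with the 8 libraries alone its adjusted p was 0.067. Of the 12 natriuretic and atrial genes 2 were called, both lower, near the 17.0% of all genes called, with a median of -1.27. With the atrial and blood markers as covariates 1 fell and 1 rose, and the median lay between -1.75 and 0.24 over the alternatives. The falls were 1 without any of ZT0 replicates 1, 2 and 4 or ZT12 replicates 1, 3 and 4.

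Of 33 collagen and matrix genes 6 fell and 2 rose (1 without any single library except ZT0 replicate 2). Of all genes 9.71% were lower and 7.26% higher. Beside Spon2 the falls included Col5a3 (-1.34, adjusted p = 6.7e-08) and the collagen cross-linking enzyme Lox (-0.88, adjusted p = 1.3e-05), whereas Timp3, an inhibitor of matrix proteases, was at 55.7, 54.7, 60.6 and 47.3 TPM at ZT0 and 129, 108, 128 and 110.0 TPM at ZT12 and rose by 1.11 ± 0.13, adjusted p = 8.1e-09. Of 21 genes of haemostasis and vessel tone 2 rose and 3 fell, near the 7.26% and 9.71% of all genes. Vegfa fell by 0.75 ± 0.15, adjusted p = 3.9e-04, and Kdr, the receptor for VEGF, was at 112, 106, 118 and 93.5 TPM at ZT0 and 61.3, 54.8, 67.3 and 48.5 TPM at ZT12, lower in all ZT12 libraries, and fell by 0.89 ± 0.12, adjusted p = 2.8e-07. Another endothelial gene, Cldn5 of the tight junction, fell by 0.87 ± 0.19, adjusted p = 6.6e-04. Other endothelial markers were not called, Pecam1 differing by -0.01 (adjusted p = 0.96) and Cdh5 by 0.02 (adjusted p = 0.95), and the summed endothelial level was 1056 to 1372 TPM at ZT0 and 937 to 1267 TPM at ZT12. Of 24 immediate early genes Srf (-0.76, adjusted p = 8.3e-07) and Egr3 (-0.73, adjusted p = 0.0032) fell and Ier3 rose (0.69, adjusted p = 0.0024), and of 23 replication genes Wee1, the kinase that holds back mitosis, was the only call (1.38 ± 0.16, adjusted p = 1.1e-08), with 3 calls without ZT12 replicate 4. No gene of the marker lists for cardiomyocytes, fibroblasts, mural cells, blood, leukocytes, adipocytes, skeletal muscle, atrium or Schwann and epicardial cells was called by limma, and 6 of these 52 genes had an unadjusted p under 0.05.

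Against ZT24 in place of ZT0, where over all genes 2107 rose and 954 fell, 8 lists with more falls than rises turned to more rises than falls. These were autophagy (9 and 2), immediate early genes (5 and 2), ion channels (4 and 2), the sarcomere (3 and 2), matrix (8 and 5), haemostasis (6 and 2), the amino acid response (5 and 3) and tRNA synthetases (3 and 1). Rises also numbered more against ZT24 in glucose metabolism (7), lipid droplets (7, with 1 fall), NRF2 targets (8), the NAD list (5), splicing factors (5, without Clk1 and Clk4) and the proteasome (4). The clock, glucocorticoid and both chaperone lists kept their balance there.

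**Figure D3:**
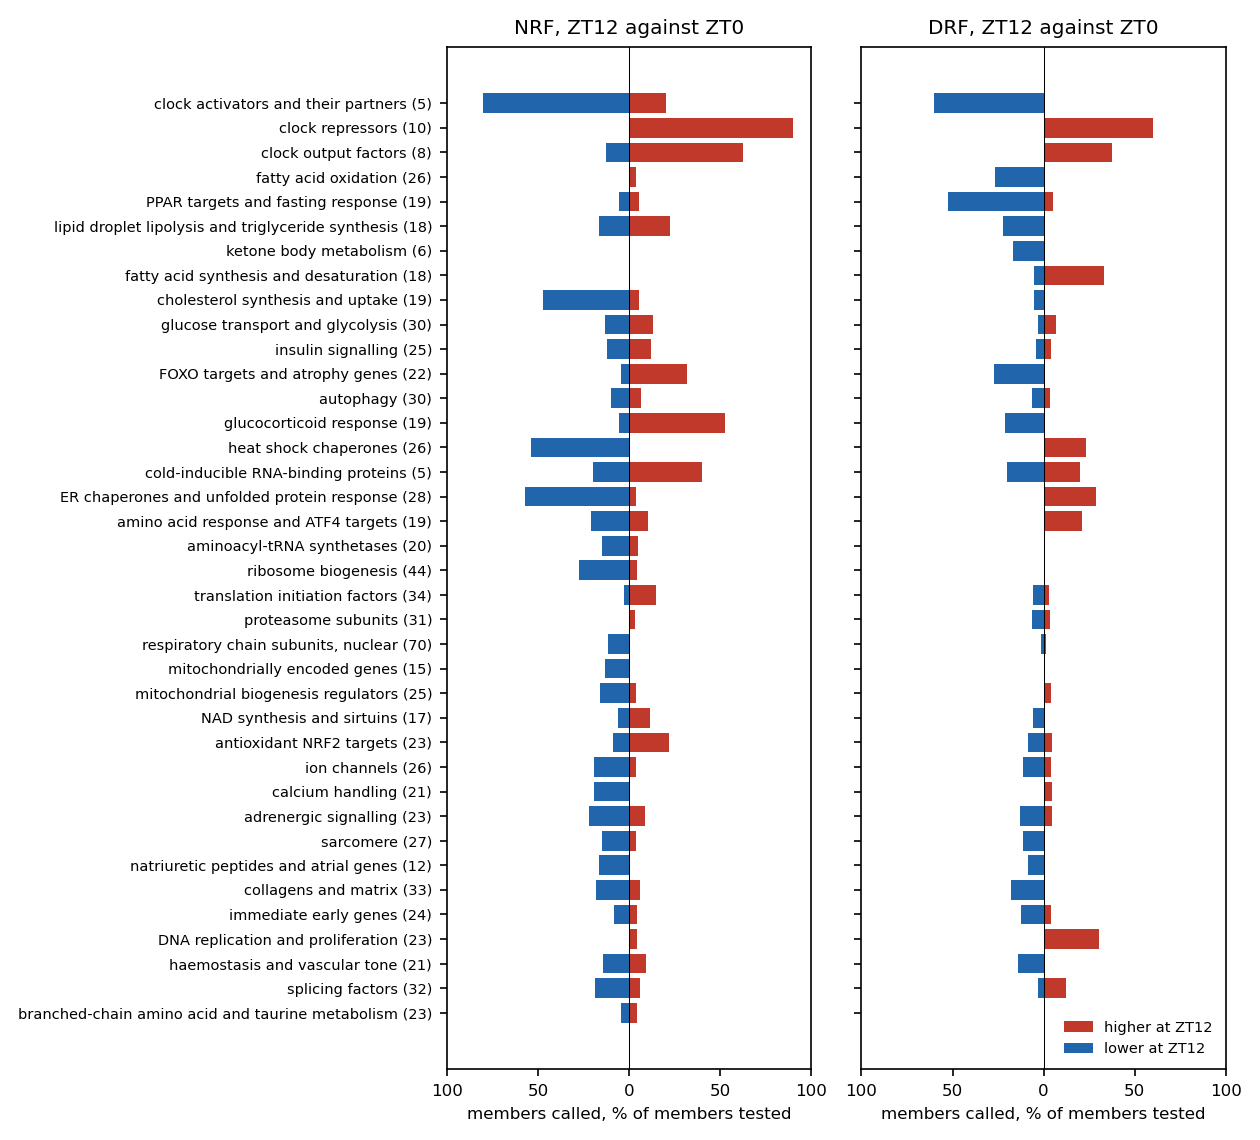
Percent of the tested genes of each list (number in brackets) called higher (red, to the right) or lower (blue, to the left) at ZT12 against ZT0, in NRF on the left and in DRF on the right. In NRF the clock repressors (9 of 10) and glucocorticoid genes (10 of 19) stand out to the right and heat shock (14 of 26) and reticulum chaperones (16 of 28) to the left, while in DRF the heat shock list has 6 genes higher and 0 lower.

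The same contrast was then taken in day-fed hearts, in which ZT12 follows the meal and ZT0 the fast, to set apart what depended on the regimen. In DRF 1205 genes were called, 8.69% of those tested, with 460 (3.32%) higher and 745 (5.37%) lower at ZT12. The difference between the regimens, tested as an interaction, was called for 2017 genes (14.5%), and 1230 of the 2353 NRF calls (52.3%) were among them. Of the NRF calls 424 were also called in DRF, which is 18.0% of the NRF calls and 35.2% of the DRF calls. They divided into 217 in the same direction and 207 in opposite directions. The interaction was called for 23 of the former. It was called for all 207 of the latter, which their selection as called in opposite directions makes nearly certain. The DRF count was 734 without DRF ZT0 replicate 1 and 1937 with median-of-ratios scaling.

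**Figure D4:**
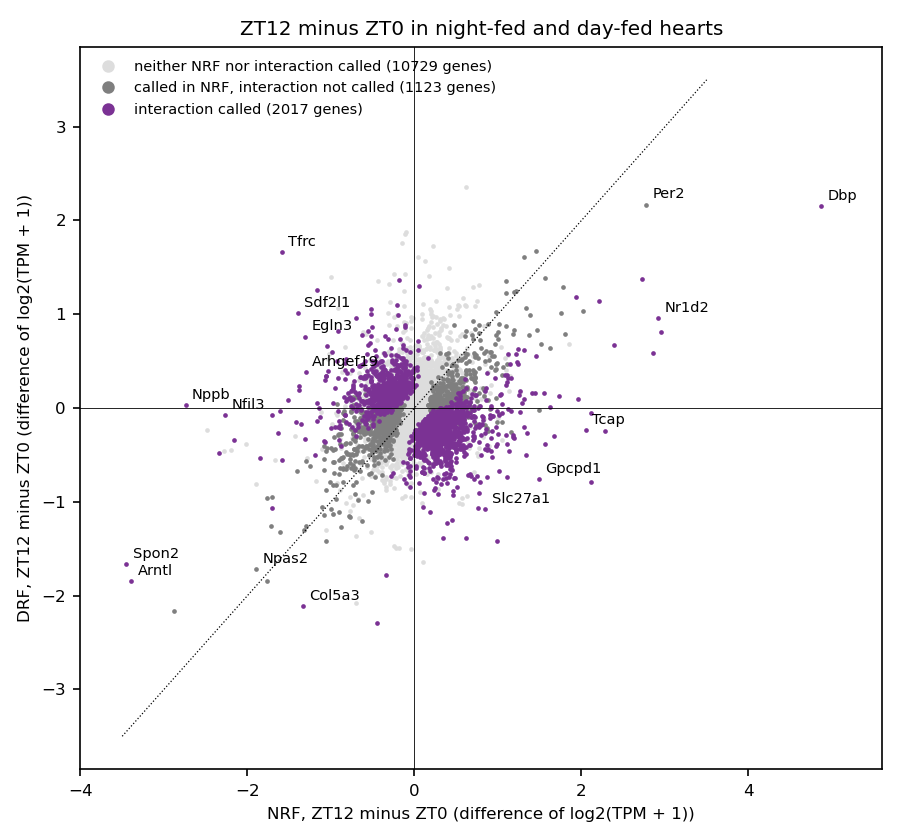
Difference between ZT12 and ZT0 in log2(TPM + 1) in NRF (horizontal) and DRF (vertical) for each gene tested, with 2017 genes whose difference between regimens was called in purple, 1123 others called in NRF in dark grey and 10729 in light grey. Clock genes such as Dbp and Arntl lie on the same side of 0 in both regimens with a smaller difference in DRF, whereas Tfrc lies at -1.59 in NRF and 1.67 in DRF.

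Clock genes called in both regimens changed in the same direction in each, mostly by less in DRF. Dbp differed by 2.15 ± 0.42, adjusted p = 6.2e-04 in DRF, less than in NRF (interaction 2.72 ± 0.60, adjusted p = 0.0012), and Arntl by -1.84 ± 0.23, adjusted p = 3.6e-07 (interaction -1.55 ± 0.33, adjusted p = 7.3e-04). Of the 10 repressors 6 rose in DRF, of the 5 activators and partners 3 fell, and the interaction was called for 7 and 3 of them. Per2 (2.17 in DRF, interaction adjusted p = 0.24) and Npas2 (-1.72, interaction adjusted p = 0.70) were not shown to differ between regimens. Per1 differed by -0.25 ± 0.36, adjusted p = 0.75 in DRF, and Nfil3 by -0.08 ± 0.25, adjusted p = 0.89, both called in NRF and not in DRF, with the interaction called (adjusted p = 4.8e-04 and 1.6e-05). Further genes that changed alike were Fam124b (-1.77 in NRF and -1.85 in DRF), the mitochondrial folate enzyme Mthfd1l (1.57 and 1.38) and the noncoding Gm45819 (1.46 and 1.67).

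Other genes changed in opposite directions in the regimens. Tfrc, the transferrin receptor that brings iron into the cell, was at 47.3, 42.9, 82.0 and 43.3 TPM at ZT0 and 13.8, 17.7, 18.0 and 17.1 TPM at ZT12 in NRF. In DRF it was at 12.7, 14.4, 17.1 and 17.2 TPM at ZT0 and 52.5, 45.4, 47.9 and 57.1 TPM at ZT12, the reverse order, again without overlap. It fell by 1.59 ± 0.26, adjusted p = 1.3e-05 in NRF and rose by 1.67 ± 0.26, adjusted p = 2.1e-05 in DRF. Slc27a1, a fatty acid transporter, rose by 0.85 in NRF and fell by 1.08 in DRF, and Gpcpd1, a glycerophosphocholine phosphodiesterase, rose by 1.49 and fell by 0.76. The oxygen-sensing hydroxylase gene Egln3 fell by 1.31 in NRF and rose by 0.76 in DRF, as did Tuba8 (-0.91 and 0.82) and Arhgef19 (-1.30 and 0.38). Rtn4r went from -1.16 to 1.26, its NRF call resting on replicate 3 of ZT0 (-0.88, adjusted p = 0.081 without it). Some chaperone and cold-response genes were in this class, with Sdf2l1 at -1.39 in NRF and 1.02 in DRF, Manf at -1.05 and 0.67, and Cirbp at 0.76 and -1.06.

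As lists, heat shock genes had 6 higher and 0 lower in DRF (14 lower in NRF) and reticulum chaperones 8 higher and 0 lower (16 lower in NRF), with the interaction called for 13 and 16 members. Fatty acid oxidation, with 1 call in NRF, had 7 of 26 genes lower in DRF, and the PPAR and fasting list 10 of 19, with the interaction called for 13 and 9. Over all genes 5.37% were lower and 3.32% higher in DRF, and the interaction was called for 14.5%. Glucocorticoid genes had 4 lower and 0 higher in DRF, the interaction being called for 11 of 19. For Tcap the DRF difference was -0.24 ± 0.23, adjusted p = 0.60, and for Nppb 0.03 ± 0.34, adjusted p = 0.97, both with the interaction called (adjusted p = 3.1e-06 and 6.0e-05).

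Over the whole NRF day the intermediate times filled in these changes. Dbp had means of 4.003 ± 0.753 TPM (SD, n = 4) at ZT0, 110.4 ± 62.8 at ZT8, 146 ± 21.7 at ZT12 and 8.74 ± 1.97 at ZT20. Tcap had means of 1236 ± 74.0 TPM at ZT0 and 5128 ± 331 at ZT12, and at ZT8 its libraries were at 2024, 5207, 5483 and 5729 TPM, the lowest being replicate 1. Nppb declined from 849 ± 193 TPM at ZT0 to 409 ± 63.4 at ZT4 and 131 ± 50.9 at ZT12 and was at 438 ± 139 TPM at ZT20. Among the other NRF libraries, ZT8 replicate 1, whose clock genes stood nearer to DRF ZT4 than to its own group, is included in the ZT8 means, and without it 2471 genes were called between ZT12 and ZT0. A day after ZT0, 8 genes were called between ZT24 and ZT0 (0.0577%, 1271 at an unadjusted p under 0.05), although the ZT24 comparison uses the same ZT0 libraries. Dbp was then at 3.84 ± 0.828 TPM, Arntl at 12.1 ± 1.68 TPM against 12.3 ± 1.57 at ZT0, and Nppb at 955 ± 275 TPM.

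**Figure D5:**
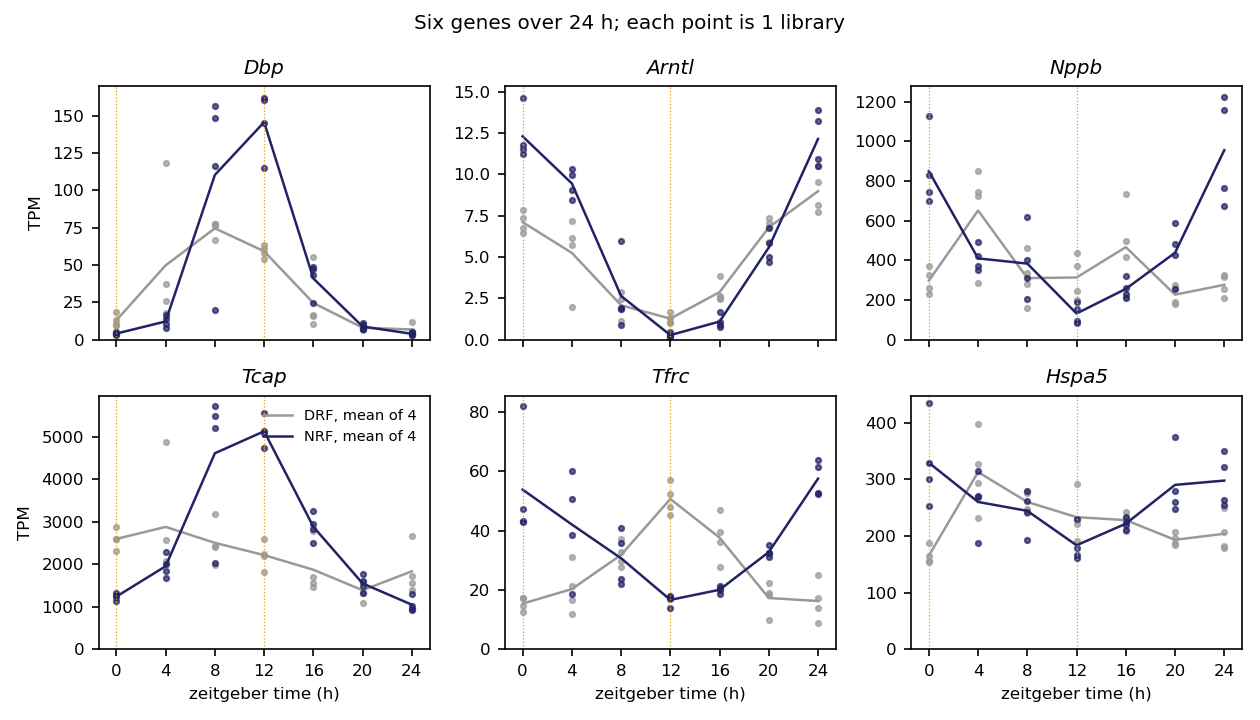
Level in TPM of Dbp, Arntl, Nppb, Tcap, Tfrc and Hspa5 from ZT0 to ZT24 (horizontal axis, h), with NRF in navy and DRF in grey, a point for each library, lines through the means of 4 libraries (NRF ZT8 replicate 1 and DRF ZT4 replicate 1 included) and dotted lines at ZT0 and ZT12. In NRF Dbp goes from 4.003 TPM at ZT0 to 146 TPM at ZT12 and Nppb from 849 to 131 TPM, and the Tfrc lines of the 2 regimens cross.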

How the data were processed

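Poly(A)-selected RNA of mouse hearts was sequenced from NEBNext Ultra libraries. The submitters' processing notes name HISAT2 2.0.5, featureCounts 1.5.0-p3 and mm10. The annotation and strand setting are not given in the sources used here. Every gene the authors deposited was above 0 in at least 20 of 56 libraries. The deposited values, called TPM by the authors, are in another unit than TPM: a logarithm of scaled reads divided by transcript length and rescaled per library. Whole reads were recovered from them with GENCODE M21 exon lengths (100.0% of 1192403 values under 30000 reads lay within 0.1 of a whole read, 21936 of 22864 genes with the annotated length, the other lengths fitted), and linear TPM was recomputed. The lengths of 4 abundant mitochondrial genes could not be tested in this way, and the annotated ones were used.

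Genes averaging 1 TPM or more across the 56 libraries were fitted as log2(TPM + 1) in limma 3.58.1 (R 4.3.3), with 14 group means and a mean-variance trend, and a gene was called at a Benjamini-Hochberg adjusted p under 0.05. The contrasts were ZT12 minus ZT0 in NRF, in DRF and their difference, and NRF ZT24 minus ZT0. Composition was compared by exact permutation tests over libraries. Depth was 29527844 to 53421005 reads in the 56 libraries. The scripts were checked on simulated data. Groups came from the labels.

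The comparison and the 48 gene lists were chosen with earlier results of these data known. Genes were named by rule: all clock genes, up to 4 called members of each list with the largest difference (up to 2 more for marker lists or where none was called), the 12 largest rises and 12 largest falls without overlap and with at least 5 TPM in the higher group, 10 genes each called in opposite or in the same direction in both regimens, and the 8 most abundant called genes. Some genes that the rule covers are not reported here. Alternatives changed the libraries, scaling, pseudocount, filter, variance model, block, covariates, threshold and reference time.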

Additional observations from a re-analysis of the deposited data

Results flagged for a closer look

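In 16 of 372 groups of 4 libraries looked at, the highest or lowest library stood far from the other 3 by Dixon's ratio, and chance does this in about 1 group in 20. At NRF ZT0, replicate 1 stood apart in Arntl (14.6 TPM against 11.3 to 11.8 TPM in the others), Arrdc2 (4.37 TPM against 3.45 to 3.58 TPM) and Hsp90aa1 (114 TPM against 75.9 to 80.1 TPM). Replicate 2 had the lowest Cox5b (791 TPM against 921 to 932 TPM) and Perm1 (168 TPM against 200.1 to 206 TPM), and was the only ZT0 library with brown fat Ucp1 (1.89 TPM). Replicate 3 had the highest Tfrc (82.0 TPM against 42.9 to 47.3 TPM) and Rtn4r (27.2 TPM against 10.7 to 13.5 TPM).

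At NRF ZT12, replicate 4 was apart in blood. Its Hbb-bt was 2446 TPM against 123 to 212 TPM, its Hba-a2 5982 TPM against 145 to 299.6 TPM, and its summed blood markers 42595 TPM against 2182 to 3638 TPM. It also had the lowest Npas2 (0.549 TPM against 0.654 to 0.674 TPM). Replicate 3 had the highest Per1 (49.8 TPM against 41.9 to 43.0 TPM) and Sqstm1 (288 TPM against 264 to 268 TPM), replicate 2 the lowest Vegfa (63.5 TPM against 84.4 to 87.1 TPM), and replicate 1 the highest Ucp1 (9.61 TPM against 0 to 0.443 TPM). Causes were not tested.

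For 2017 genes limma called the difference between ZT12 and ZT0 itself different between regimens. The following values are the NRF difference minus the DRF difference in log2(TPM + 1). Among the clock genes it was -1.55 for Arntl, -0.71 for Clock and 0.45 for Rora. Among the repressors it was 2.53 for Per1, 1.35 for Per3, -1.06 for Cry1, 0.89 for Cry2, 1.96 for Nr1d2, 0.64 for Bhlhe41 and 2.14 for Ciart. The output factors had 2.72 for Dbp, 1.07 for Tef, 0.74 for Hlf, -2.19 for Nfil3, 1.18 for Klf9 and 1.18 for Klf15. Of genes with opposite directions in the regimens, Tfrc had -3.26, Rtn4r -2.42, Sdf2l1 -2.41, Gpcpd1 2.25, Egln3 -2.07, Slc27a1 1.93, Cirbp 1.82, Tuba8 -1.73, Manf -1.72 and Arhgef19 -1.68. The matrix genes Spon2 (-1.79) and Col5a3 (0.77) fell in both regimens, Spon2 by more in NRF and Col5a3 by more in DRF.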

How the results depend on the processing

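At 4 libraries a group the median standard error of a difference was 0.10, so small changes, and changes of genes near 1 TPM, may have been missed. Leaving out each library in turn gave 1781 to 2223 NRF calls (748 to 1064 higher, 901 to 1393 lower), the lowest without NRF ZT0 replicate 3, and 1687 of the 2353 calls (71.7%) were kept there. With adjusted p under 0.01, 1322 genes were called, 560 higher and 762 lower. Against ZT24, 2107 genes were higher, 1661 (70.6%) of the original 2353 calls were kept, and 20 of the 2353 genes, which are not among those kept, changed sign. Rn7sk then stood at 1.01 and Gm22009 at 0.43, both not called. The cause was not tested. NRF calls numbered 3179 with median-of-ratios scaling, 3028 with voom on the recovered reads and 1965 with the 8 libraries alone. Chosen after seeing the data, the atrial and blood covariates gave 2601 calls, leaving out NRF ZT8 replicate 1 gave 2471 and leaving out DRF ZT4 replicate 1 as well gave 2570, with the interaction then called for 2279 genes, Nr1d1 among them (0.98, adjusted p = 0.027), and Cry1 called lower in NRF (-0.32, adjusted p = 0.041).

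For DRF, leaving out single libraries gave 734 to 1055 calls (218 to 524 higher, 497 to 698 lower). Median-of-ratios scaling gave 1937 (919 higher), and voom 790 higher. The interaction gave 1659 to 2039 calls when single libraries were left out, and its lower genes numbered 1511 with median-of-ratios scaling and 1431 with voom. Between NRF ZT24 and ZT0, 2 genes were higher with only NRF libraries and with median-of-ratios scaling, and the covariates left 3 called, 0 higher and 3 lower. Of 152 called named genes 19 were not tested with the 5 TPM filter, 94 were tested and stayed called in every alternative, and 17 of the 19 stayed called in all others.

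Same-numbered ZT0 and ZT12 libraries deviated together by correlations of 0.136, 0.208, -0.0096 and 0.160, not all above 0.1, so the replicate numbers were not taken as pairs. With the replicate number as a block, 2391 NRF genes were called (1028 higher, 1363 lower), 1195 in DRF, 2037 for the interaction and 7 between ZT24 and ZT0, and among the 8 libraries alone 2894 (1362 higher, 1532 lower). Of the named called genes 3 missed the threshold with the block among all groups, Psmd4 (adjusted p = 0.054), S100a1 (0.051) and Csrp3 (0.053). For 3 of 4 numbers the best correlation was with the same number.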
